A study of Homo sapiens with 4 samples.

Results

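The C/EBP transcription factors were examined on expression microarrays of LN229, a human glioblastoma cell line in long-standing use, in which *SOX2* had been knocked down. The members were the 6 genes *CEBPA*, *CEBPB*, *CEBPD*, *CEBPE*, *CEBPG* and *CEBPZ*, found by the gene symbol that the arrays give to each gene probe. Each gene had 1 probe, so the results rest on 6 of 33096 gene probes. One group was transfected with siRNA against *SOX2* and the other, called mock knockdown, with a non-targeting siRNA. Each group had 2 arrays. The study's methods place the harvest 72 h after transfection and describe the replicates as separate transfections with an array each. Both groups share the line, the medium and the transfection, and which of the methods' siRNAs went onto the arrays is not given in the sources used here. A single cell line was used, and in such bulk RNA fewer expressing cells and less RNA per cell cannot be told apart.

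The C/EBP factors are basic leucine zipper (bZIP) proteins. They bind DNA as dimers with each other or with related bZIP proteins, and they are best known for switching on the genes of fat cells, liver cells and granulocytes, for the acute-phase response, and for cell cycle exit. CEBPA and CEBPE act in differentiating myeloid cells. CEBPB and CEBPD are induced by cytokines and stress, and CEBPB has been linked to the mesenchymal state of glioblastoma. CEBPG has no strong activation domain of its own and pairs with other C/EBP proteins and with ATF4. CEBPZ carries the family's name because it binds the CCAAT box, but it is no bZIP protein and belongs with the nucleolar complex proteins that build ribosomes.

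Values are scaled signals: the deposited signal of a probe divided by the 75th percentile of all gene probes on the same array. Signals of different probes are not set against each other, since each probe has its own brightness. All 6 members had a signal over 3 times its own error (signal-to-noise ratio, S/N) on each of the 4 arrays, where 63.5% to 68.9% of gene probes reached that level. The *SOX2* probe itself, the check of the knockdown, read 0.467 and 0.701 in mock cells against 0.209 and 0.149 after knockdown. Its knockdown arrays lay below both mock arrays at 0.307 of the mock level, only just over the S/N limit at 3.17 and 3.06 (log2 change -1.69, SE 0.28; limma adjusted p = 0.117).

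After *SOX2* knockdown, *CEBPG* and *CEBPA* were more than 2-fold higher, *CEBPB* and *CEBPD* were higher by smaller amounts without overlap between the groups, and *CEBPE* and *CEBPZ* overlapped. Over all 21256 probes kept by the S/N filter, 1.57% were over 2-fold higher (334 probes) and 1.04% over 2-fold lower (220 probes), against 2 of 6 members higher and 0 lower. Groups that do not overlap with the knockdown arrays on top were common among all probes, at 21.2%, against 4 of 6 members. The median log2 change was 0.76 over the members and -0.001 over all kept probes. No member passed an adjusted p of 0.05 in limma, where 0.0% of all probes passed and the smallest adjusted p was 0.0582. At an unadjusted p under 0.05, limma gave 4 members, each higher after knockdown, beside 7.9% of all probes that were higher at that p (3626 probes in either direction). With 2 arrays against 2, an exact permutation test of a single probe cannot go below p = 0.333, so it was not used.

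**Figure D1:**
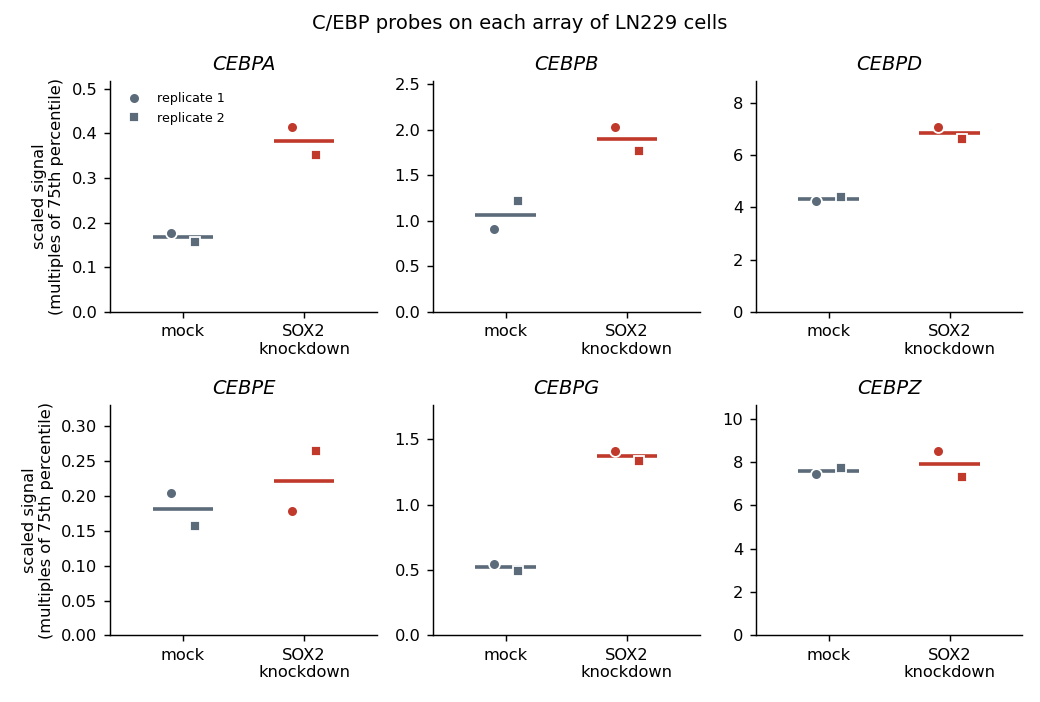
Scaled signal (multiples of the 75th percentile of the array's gene probes) of the 6 C/EBP probes on each mock and SOX2 knockdown array, with the group mean as a bar; each panel has its own axis from 0. For CEBPA, CEBPB, CEBPD and CEBPG both knockdown arrays lie above both mock arrays, while the groups of CEBPE and CEBPZ overlap.

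*CEBPG* had the largest difference of the family. Its probe read 0.546 and 0.494 in mock cells, and 1.41 and 1.33 after *SOX2* knockdown. The replicates of each group lay close together, and the groups were far apart: a knockdown array exceeded a mock array by at least 2.44-fold and at most 2.86-fold, whichever pair was taken. The ratio of the means was 2.64, and the log2 change of 1.40 (SE 0.14, 95% CI 1.04 to 1.76) was exceeded by 0.668% of all kept probes (limma adjusted p = 0.0816). The call at an adjusted p of 0.05 turned on the model: limma with a trend of the variance on the signal gave *CEBPG* an adjusted p of 0.0238.

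*CEBPA*, which encodes the factor known for halting the cell cycle as granulocytes, hepatocytes and adipocytes mature, was low in mock cells at 0.177 and 0.156. On the knockdown arrays it read 0.414 and 0.352. Both knockdown values were above both mock values, and the closest pair differed 1.996-fold. The ratio of the means was 2.31 and the log2 change 1.20 (SE 0.16, 95% CI 0.78 to 1.63), with 1.04% of all kept probes above it (limma adjusted p = 0.0987). The 2-fold call of *CEBPA* was lost in a fit that started from the raw reading, which gave 1.42-fold. That fit used the normexp background correction with an offset of 50, followed by quantile normalization.

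When each array was divided by its median, used as deposited, or taken from the authors' processed table, limma gave adjusted p-values of 0.000202 to 0.000248 for *CEBPG* and 0.00287 to 0.00325 for *CEBPA*. The fold changes hardly moved (2.59 to 2.61 and 2.27 to 2.29). In these 3 fits limma gave every probe the same standard error of 0.29, so that the p-values no longer used the spread of each probe's own replicates.

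*CEBPB*, which encodes an inducible factor made as activating and inhibitory protein forms from 1 mRNA, read 0.914 and 1.22 in mock cells, and 2.03 and 1.77 after knockdown. The knockdown arrays were both above the mock arrays, but the mock replicates differed by 0.42 on the log2 scale, more than the mock replicates of any other member. The means differed 1.78-fold (log2 change 0.84, SE 0.20, 95% CI 0.32 to 1.37; limma adjusted p = 0.165). Without the second mock array the ratio was 2.08, over the 2-fold limit, and without the first it was 1.56.

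*CEBPD*, the family's fast-responding acute-phase member, read 4.23 and 4.38 in mock cells, and 7.07 and 6.63 after knockdown. Its mock replicates differed by only 0.05 on the log2 scale, and both knockdown arrays were at least 1.51 times either mock array. The ratio of the means was 1.59 (log2 change 0.67, SE 0.13, 95% CI 0.33 to 1.01; limma adjusted p = 0.131). A change of this size or larger was not rare, as 4.2% of all kept probes lay above it.

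*CEBPE*, normally a gene of late granulocytes, gave 0.205 and 0.157 in mock cells, and 0.178 and 0.265 after knockdown. The lowest knockdown value fell between the mock values, so no difference was resolved (ratio 1.23, log2 change 0.28, 95% CI -0.42 to 0.98; limma adjusted p = 0.706). The second knockdown array decided the sign, since without it the log2 change was -0.01. *CEBPE* was higher on the first mock array than on the second and higher on the second knockdown array than on the first, by 0.38 and 0.57 on the log2 scale. The same arrays stood together in their 75th percentiles, at deposited signals of 6.06 and 5.96 against 6.88 and 6.74 on the other two. Across all kept probes the deviations of same-numbered arrays correlated at r = -0.484 (21256 probes, which are not independent and share the 4 arrays), and the part of this in the value of *CEBPE* was not tested.

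*CEBPZ*, the ribosome-building namesake, read 7.44 and 7.72 in mock cells, and 8.52 and 7.31 after knockdown. One knockdown array was above and the other below both mock arrays. The ratio was 1.04 and the 95% CI of the log2 change ran from -0.33 to 0.45 (limma adjusted p = 0.915), an interval that holds no 2-fold change in either direction. Within each array, a change can be read relative to *CEBPZ*, which removes any scaling of whole arrays. On that footing *CEBPG* was higher by 1.34, *CEBPA* by 1.15, *CEBPB* by 0.78 and *CEBPD* by 0.61 on the log2 scale, and *CEBPE* by 0.22. For the first 4 of these both knockdown arrays again exceeded both mock arrays, whereas *CEBPE* read -0.18 on the first knockdown array and 0.62 on the second. A difference between 2 probes within an array shows unequal change and not which of them changed.

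**Figure D2:**
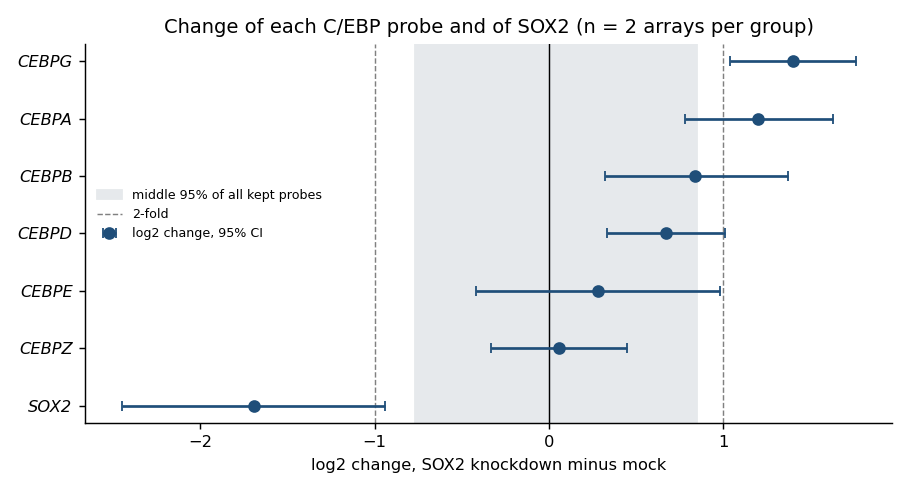
Log2 change (SOX2 knockdown minus mock) of each C/EBP probe and of SOX2 with its 95% confidence interval from limma, n = 2 arrays per group; the grey band, from -0.77 to 0.85, holds the middle 95% of all kept probes and dashed lines mark 2-fold. CEBPG and CEBPA lie above the band, CEBPB, CEBPD, CEBPE and CEBPZ inside it, and SOX2 below it.

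*CEBPG* and *CEBPA* are neighbours: in the RefSeq gene order (GRCh38.p14) no other protein-coding gene lies between them on chromosome 19. The 5 protein-coding genes on either side gave a view of the surroundings, and 9 of these 10 had a probe, all kept. Their log2 changes ran from -0.19 to 0.57, and 0 of 9 were over 2-fold. That count is near the shares over all kept probes, 1.57% higher and 1.04% lower. The genes that directly flank the pair had overlapping groups: *SLC7A10*, an amino acid transporter, at a log2 change of -0.19 (95% CI -0.72 to 0.35) and *PEPD*, a dipeptidase, at -0.01 (95% CI -0.39 to 0.38). On the second mock array *SLC7A10* had an S/N of 2.78, under the limit. The upper end was *GPATCH1*, which read 0.444 and 0.422 in mock cells and 0.659 and 0.626 after knockdown, a ratio of 1.48 (limma adjusted p = 0.157).

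Promoter sequence was taken from RefSeq (GRCh38.p14) as windows of 300 bases, from 250 bases before an annotated start to 50 after it. It held 7 windows for 5 of the members. They were searched on both strands for TGATGNAA, the core of the composite sites that ATF4 and C/EBP dimers share, for TTNNGNAA, the core of a C/EBP dimer site, for CCAAT and for TGACG, the core of the CRE site of ATF and CREB proteins. The searches were chosen after the values were known. Of 35116 windows over all genes, TGATGNAA occurred in 3.62%, TTNNGNAA in 36.8%, CCAAT in 34.6% and TGACG in 24.6%. The windows of *CEBPG* and the one of *CEBPB* that holds TGACG are printed because their genes were higher after knockdown and they hold matches, shown in capitals, with no match overlapping another. A match describes letters and is not a bound site. CEBPG chr19:33373863-33374162 (+ strand) holds TGATGCAA, which begins 42 bases before the start. CEBPG chr19:33373459-33373758 (+ strand) holds CCAAT on the opposite strand, so ATTGG as printed, beginning 85 and 24 bases before the start. CEBPB chr20:50190580-50190879 (+ strand) holds CCAAT 245 bases and TGACG 57 bases before the start.
CEBPG, window with TGATGNAA: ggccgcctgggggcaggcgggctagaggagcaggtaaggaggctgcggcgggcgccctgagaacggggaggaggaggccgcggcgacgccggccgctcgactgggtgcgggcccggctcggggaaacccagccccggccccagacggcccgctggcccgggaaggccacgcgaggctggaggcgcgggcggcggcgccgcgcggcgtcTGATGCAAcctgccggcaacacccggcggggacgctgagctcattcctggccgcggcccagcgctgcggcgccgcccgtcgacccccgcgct
CEBPG, window with CCAAT: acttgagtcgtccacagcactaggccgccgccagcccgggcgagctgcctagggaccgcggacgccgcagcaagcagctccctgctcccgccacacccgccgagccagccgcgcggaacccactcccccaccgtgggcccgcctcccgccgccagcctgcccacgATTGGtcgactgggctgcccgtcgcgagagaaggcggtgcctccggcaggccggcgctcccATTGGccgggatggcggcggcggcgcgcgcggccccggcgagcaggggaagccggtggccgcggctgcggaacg
CEBPB, window with TGACG: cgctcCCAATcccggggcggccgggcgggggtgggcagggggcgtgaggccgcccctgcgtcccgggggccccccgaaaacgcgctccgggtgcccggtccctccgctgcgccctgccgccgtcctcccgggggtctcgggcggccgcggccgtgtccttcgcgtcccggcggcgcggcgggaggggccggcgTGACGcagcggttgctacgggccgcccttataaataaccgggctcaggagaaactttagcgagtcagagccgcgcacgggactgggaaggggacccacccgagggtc
The *CEBPA* window on the minus strand (chr19:33302485-33302784), 80.7% G or C, held none of the 4 motifs, and neither did that of *CEBPE*. The *CEBPZ* window held TGACG. TTNNGNAA, the C/EBP dimer core, was found in 0 of the 7 member windows, beside 36.8% of all windows. The share of G or C was 57.7% to 80.7% in the member windows, and its median over all windows was 58.7%. The shares over all windows were not matched for this.

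The bZIP partners and relatives were the next group, 17 of 18 genes kept. In this list 3 genes were over 2-fold higher (1.57% of all probes) and 0 lower, 11 had groups that did not overlap with knockdown on top (21.2% of all probes), and the median log2 change was 0.35 beside -0.001 over all probes. *DDIT3*, which encodes CHOP, a C/EBP homologue that pairs with C/EBP proteins under stress, went from 3.76 ± 0.715 to 11.8 ± 0.200 (SD, n = 2; 3.13-fold, limma adjusted p = 0.0833). *NFIL3*, a repressor of the PAR bZIP branch, was 2.63-fold higher and *ATF3*, a stress-induced repressor, 2.56-fold higher (limma adjusted p = 0.0912 and 0.0964). *ATF4*, the translationally controlled partner of CEBPG, differed less: its brighter probe read 41.0 ± 10.8 in mock cells and 54.1 ± 6.52 after knockdown (SD, n = 2; 1.32-fold, limma adjusted p = 0.466), and its other probe was at 1.10-fold. The AP-1 members *JUN*, *JUNB* and *JUND* were at 0.942, 1.01 and 0.965 of mock, and *FOS* at 0.75. For *FOSL2* the probes disagreed in size: the brighter was at 1.48-fold, and a dim one, not above the S/N limit in mock cells, read 0.0207 and 0.122 as group means and was at least 3.42-fold higher when the mock level was set at S/N 3 from the probe's own error.

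Of 12 regulators of C/EBP proteins, all kept, 1 was over 2-fold higher and 0 lower (1.57% and 1.04% of all probes), with a median log2 change of -0.06. The exception was *TRIB3*, a pseudokinase induced by ATF4 and CHOP, whose brighter probe went from 4.24 ± 0.0930 to 16.4 ± 0.669 (SD, n = 2; 3.87-fold, limma adjusted p = 0.0640). Its dimmer probe showed no such difference at 1.02-fold, so the *TRIB3* probes disagree. *TRIB1* and *TRIB2*, which send C/EBPα protein for degradation, were at 0.75 and 0.668 of mock (limma adjusted p = 0.395 and 0.187), with both knockdown arrays below both mock arrays.

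The 10 stress targets shared with ATF4 had the highest median log2 change of the 8 lists, 1.16. All 10 were kept, 6 were over 2-fold higher beside 1.57% of all probes, and in all 10 the knockdown arrays lay above the mock arrays, which held for 21.2% of all probes. *SESN2*, a stress-induced inhibitor of mTORC1, was 4.28-fold higher (4.86 ± 1.27 against 20.8 ± 2.0), and *CHAC1*, which degrades glutathione, was 4.18-fold higher (0.103 ± 0.00282 against 0.429 ± 0.0104; SD, n = 2). *TRIB3* followed, and then *ASNS*, asparagine synthetase, at 2.5-fold by one probe and 2.12-fold by another. The limma adjusted p was 0.0833 for *SESN2*, 0.0640 for *CHAC1* and 0.0833 for *ASNS*. The TGATGNAA motif of the *CEBPG* window occurred in 4 of the 14 windows of the listed genes, 1 each of *ASNS*, *CHAC1*, *SLC3A2* and *HERPUD1*, beside 3.62% of all windows. Because the list was chosen as targets shared with ATF4, a higher share of this motif was likely beforehand. A link to the changes was not tested.

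The acute-phase and inflammatory targets, on which CEBPB and CEBPD are known to act, comprised 24 genes, of which 17 were kept. By the ratio of means as read, 6 were over 2-fold higher and 0 over 2-fold lower, beside 1.57% and 1.04% of all probes. Counted in the 6 are *CXCL2* and *SAA1*, which were kept only through their knockdown arrays. The bound given below for *CXCL2* is under 2-fold. Groups did not overlap, with knockdown on top, in 10 genes, beside 21.2% of all probes. In 3 genes mock was on top, for which the share over all probes was not computed. The median log2 change was 0.64. *IL6*, the cytokine whose promoter gave CEBPB its older name NF-IL6, went from 0.0614 ± 0.00980 to 0.635 ± 0.00624 (SD, n = 2; 10.3-fold). *PTX3*, a soluble pattern-recognition protein, went from 0.120 ± 0.00529 to 0.860 ± 0.0892 (7.17-fold). Both had a limma adjusted p of 0.0582, the smallest of any probe. The chemokine *CXCL2* and the serum amyloid *SAA1* were not above the S/N limit on the mock arrays and were at least 1.81-fold and 2.29-fold higher with the mock level set at S/N 3 from each probe's own error. Taking their mock signals as read gave 3.69-fold and 2.88-fold on the log2 scale, because the lowest signal over the limit on an array set no higher floor. *SAA1* and *SAA2* are near-identical in sequence and share 1 gene ID on the array, so their probes cannot be taken as separate genes, though each is counted in the 6. *TNFAIP6*, a hyaluronan-binding inflammatory protein, ran the other way at 0.547 of mock, and *CRP*, *IL1B*, *PTGS2* and *SERPINA3* were at 0.973, 1.01, 0.871 and 0.737.

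In the fat and myeloid lists, drawn from tissues where C/EBP factors are main regulators, no kept gene was over 2-fold by the ratio of means. Over all kept probes 1.57% were over 2-fold higher and 1.04% lower, so 0 among 5 kept genes of each list is near those shares. Of 12 adipogenic targets 5 were kept and 0 were over 2-fold (median log2 change -0.20), with *PPARG*, the partner of CEBPA in fat cells, at 1.21-fold and the desaturase *SCD* at 0.558 and 0.562 of mock by 2 probes. The fatty acid transporter *CD36* lay at the limit: it was not above the S/N limit on the mock arrays, its means gave 1.92-fold and its log2 change was 1.01, and no fold was left with the mock level set at S/N 3 from its own error. Of 12 myeloid targets 5 were kept, 0 over 2-fold, with a median log2 change of -0.20. *CSF3R*, the granulocyte growth factor receptor and a target of CEBPA, was at 0.877 of mock with overlapping groups. The 3 subunits of NF-Y, the other CCAAT-box factor, were at 0.991, 1.09 and 0.950 of mock, and the *CEBPZ* relatives *NOC2L*, *NOC3L* and *NOC4L* at 0.843, 1.05 and 1.13.

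**Figure D3:**
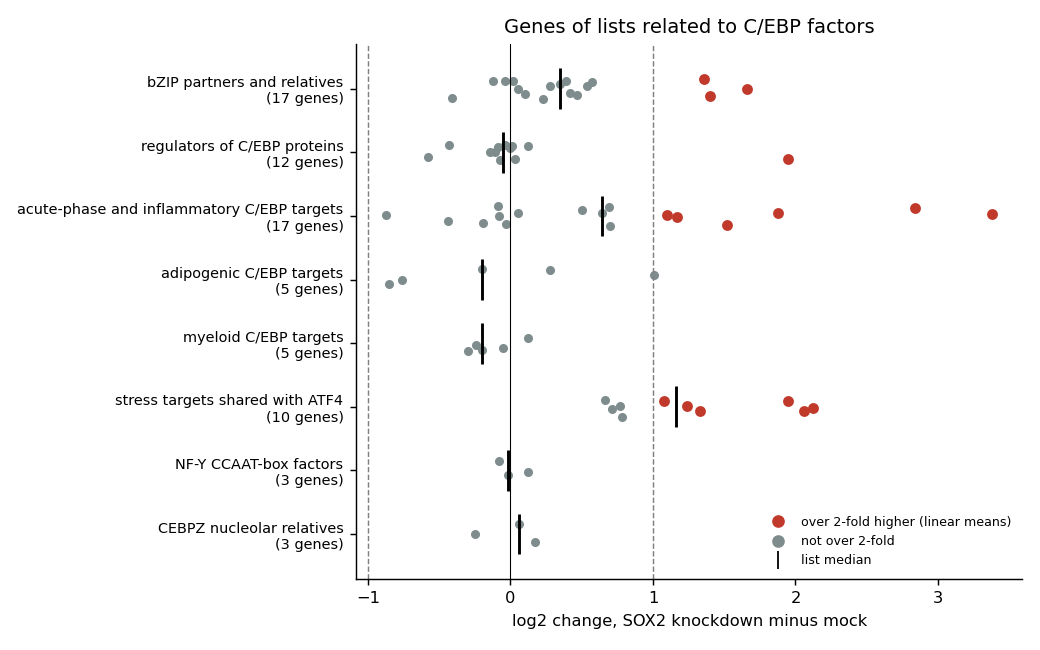
Log2 change (SOX2 knockdown minus mock) of the brightest kept probe of each gene in the 8 lists, n = 2 arrays per group; red points are over 2-fold higher by the ratio of linear means, grey points are not, black ticks are the list medians and dashed lines a log2 change of 1 or -1. The grey adipogenic point at 1.01 is CD36, 1.92-fold by its means. The stress targets all lie to the right of 0 with a median of 1.16, while the adipogenic and myeloid targets have medians of -0.20.

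Of 6 glial and mesenchymal markers 5 were kept, all but *FN1*. *VIM*, *CD44* and *S100B* passed the S/N limit on each of the 4 arrays. Of 8 colon epithelial markers 4 were kept, a list checked because the label's treatment field names SW620, a colon line. Among them the simple-epithelium keratins *KRT8* (1 of 2 probes) and *KRT18* and 1 of 2 *VIL1* probes passed on each array and *CDX2* on both mock arrays only, whereas *CDH1*, *KRT20* and *CDH17* passed on 0 arrays and *EPCAM* on 1. The adipocyte markers *ADIPOQ*, *FABP4*, *LEP* and *PLIN1* (0 of 4 kept) were dim on every array. Of 6 myeloid markers 3 were kept, *CD14*, *SPI1* and *ITGAM*, each with a probe over the S/N limit on all 4 arrays, while *MPO* and *CSF1R* were dim on every array. Another *ITGAM* probe passed on 3 arrays and its remaining probes on 0. *PTPRC* was not kept, as its probes passed on 0 arrays and on 1. The summed signal of the 6 myeloid markers was 1.67 to 2.49 on the mock arrays and 1.78 to 2.35 on the knockdown arrays, and that of the glial markers 99.4 to 116 and 92.1 to 104. Of the 3 hepatocyte markers with a probe, *ALB* was not kept, *TTR* was at 0.838 of mock and *SERPINA1*, also an acute-phase gene, was 3.18-fold higher (0.0295 ± 0.00264 against 0.0936 ± 0.00192; SD, n = 2; limma adjusted p = 0.0675).

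For each member, the probes whose deviations from the mock mean over the 4 arrays were most like its own were listed from 15477 single-gene probes, by Euclidean distance on the log2 scale. The nearest to *CEBPG* were *MGC19764* (distance 0.081), *KLF10*, a zinc-finger factor induced by TGF-beta (0.114), and *C10orf81* (0.165). *CEBPA* was nearest to *DOC1*, *MFNG* and *SLC2A3*, the neuronal glucose transporter (0.092 to 0.117). *CEBPB* was nearest to *PHLDA1*, *STX1A* and *LOC401431* (0.072 to 0.096). For *CEBPD* these were *RAD52*, *NGEF* and *RAD54B* (0.016 to 0.036). *CEBPE* lay nearest to *MS4A2*, *ODZ4* and *INE1* (0.027 to 0.046), and *CEBPZ* to *RBMX*, *CHST3* and *WDR35* (0.014 to 0.020). No member was among the nearest 3 of another.

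**Figure D4:**
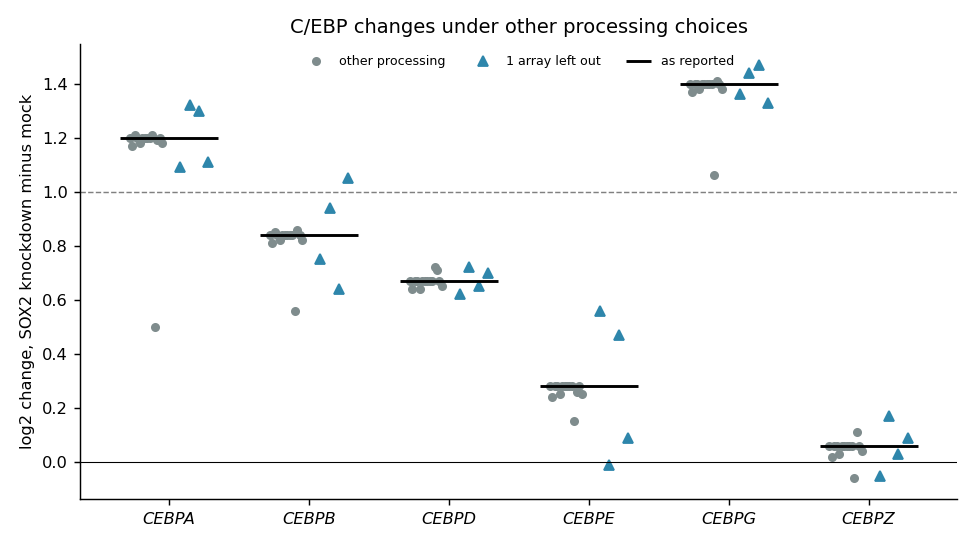
Log2 change (SOX2 knockdown minus mock) of each C/EBP probe as reported (bar), under other processing choices (grey circles) and with 1 array left out (blue triangles); the dashed line marks 2-fold. CEBPG stays above the line throughout (1.06 to 1.47), CEBPA falls below it under 1 choice (0.50), and only CEBPE and CEBPZ reach 0.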

How the data were processed

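Biotin-labelled cRNA from 250 ng of total RNA was run on 4 arrays of the Applied Biosystems Human Genome Survey type, with 1 colour and chemiluminescent detection. The deposited scanner files hold a background-corrected, normalized signal per probe, an intensity on a linear scale, and an S/N ratio, used here as a score; S/N equalled signal over its error for 100% of unflagged probes over 3. The authors' processed table holds a linear ratio per probe and array, which gave the same log ratios between arrays as the scanner files (r = 1.0) and served as an alternative. Software version and flag meanings are not given in the sources used here.

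Of 33096 gene probes, 210 with a flag of 5000 or more were left out. Each array was divided by its 75th percentile, floored at 0.01 and log2-transformed. A probe was kept if either group had it above an S/N of 3 on both its arrays (21256; 11630 dropped). The study's methods average probes by gene ID and use a 2-fold cutoff without a test; here probes were kept apart, ratios are of linear means, and limma 3.58.1 (R 4.3.3; lmFit and eBayes, two-sided, Benjamini-Hochberg over all kept probes) gave log2 changes, SE and p. The fit was also run on simulated data with independent noise for each probe and array. The simulation did not include the correlated deviations of same-numbered arrays (r = -0.484) and does not test the fit under them. A gene dim on both arrays of a group got a lower bound from the signal at which its S/N would be 3, since the dimmest signal that passed the S/N limit on an array lay below most dim signals and set no bound. Lists used the brightest kept probe that names a single gene. 121 of 122 list and marker entries were on the arrays, some under older symbols matched through RefSeq synonyms.

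The members and gene lists were chosen with earlier results of these data known. Named were every member probe, *SOX2*, *DDIT3*, *ATF4* and *TRIB3*, up to 4 list genes over 2-fold by size, and the 3 nearest probes of each member; other genes were named after their values were seen. Alternatives were other scalings, background corrections, floors, filters, gene averaging, a variance trend, a replicate block, other cutoffs and leaving out each array. The number of arrays limits the precision.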

Additional observations from a re-analysis of the deposited data

How the results depend on the processing

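The changes of *CEBPA*, *CEBPB*, *CEBPD* and *CEBPG* kept their sign under all 14 other settings and with any 1 array left out. *CEBPZ* turned to -0.06 with normexp and -0.05 without the first knockdown array, and *CEBPE* to -0.01 without the second knockdown array. With 1 array left out *CEBPZ* ranged from -0.05 to 0.17 and *CEBPE* from -0.01 to 0.56. In those fits the lone array of a group was assumed to vary like the arrays of the other group. The number of members over 2-fold was 2 as reported, 1 with normexp, 4 at a 1.5-fold cutoff and 0 at a 3-fold cutoff, and 2 to 3 with 1 array left out, the third being *CEBPB* without the second mock array. Members past an adjusted p of 0.05 in limma numbered 2 with median scaling, with the deposited signal and with the authors' table, 1 with the variance trend, and 0 otherwise. Genes of the 8 lists over 2-fold in either direction numbered 15, beside 1.57% of all probes higher and 1.04% lower. The lists kept 17, 12, 10, 17, 5, 5, 3 and 3 genes, in the order described above. *TRIB3* is in both the regulator and the stress list and was counted once. The count was 25 at 1.5-fold, which includes *TNFAIP6* and *SCD* as lower genes, 7 at 3-fold and 14 to 17 with 1 array left out. It was 12 with normexp, 12 with a floor of 0.05 and 13 where every array had to pass the S/N limit. Over all probes, 554 were over 2-fold (60.3% of them higher). That count was 2234 at 1.5-fold (50.6% higher), 119 at 3-fold (82.4%), 302 where every array had to pass the S/N limit, 363 with a floor of 0.05, 1373 without the filter (51.2%), 240 with normexp (77.9%) and 782 to 1192 with 1 array left out. The extremes were without the second knockdown array (782) and without the first mock array (1192), and the split reached 71.9% higher (1135 probes) without the first knockdown array and 868 probes were over 2-fold without the second mock array. Probes past an adjusted p of 0.05 numbered 0, but 826 with median scaling, 776 with the deposited signal, 758 with the authors' table, 287 with the variance trend and 5 where every array had to pass the S/N limit. In the first 3 of these limma replaced the variance of every probe by 1 common value, which gave the common standard error of 0.29. Why it did so under these scalings was not tested. With the replicate number as a block 0 members passed (adjusted p = 0.256 for *CEBPG*, 0.303 for *CEBPA*). Whether the numbers pair the arrays cannot be told from 4 arrays, as only 2 pairs exist. The deviations of same-numbered arrays correlated at r = -0.484. Crossing the numbers, an alternative chosen after seeing the data, also gave 0 calls over all probes. All members had S/N of 6.8 or more on every array, yet some folds were smaller with normexp. That setting took *CEBPA* from 2.31 to 1.42-fold, *CEBPG* from 2.64 to 2.08 and *CEBPB* from 1.78 to 1.48. *CEBPD* went the other way, from 1.59 to 1.65. The setting started from the raw reading, added an offset of 50 and then quantile-normalized the arrays. Which of these steps changed the folds was not tested. The knockdown signals of *SOX2* lay just over the S/N limit.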
